A study of Mus musculus with 6 samples.

Results

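Insulin granule exocytosis was examined through 9 genes, *Snap25*, *Stx1a*, *Vamp2*, *Syt7*, *Sytl4*, *Rab3a*, *Rab27a*, *Unc13a* and *Cplx2*, which encode the proteins that tether, dock, prime and fuse secretory granules. They were selected by gene name among the 55060 genes listed for mouse pancreatic islets, and all 9 were present. The islets came from 3 Ctrl and 3 cKO samples of C57BL/6 mice at 12 weeks of age. The cKO mice were *Ins2-cre; Parn f/f*, in which Cre made from the *Ins2* promoter removes exon 7 of *Parn*, the gene of a poly(A)-shortening ribonuclease, in β cells. Ctrl mice were *Parn f/f* mice and other littermates, and which Ctrl samples carried Cre is not given in the sources used here. Nothing in the labels says whether a sample was 1 mouse or a pool, so p-values measure the spread between these samples. Whole islets also hold α, δ, endothelial and other cells, and in such bulk samples fewer cells of a type and less RNA per cell cannot be told apart.

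In a β cell, insulin is stored in dense-core granules that move to the plasma membrane and wait there until glucose metabolism closes potassium channels and calcium enters through voltage-gated channels. Rab GTPases on the granule and the effectors they bind carry out tethering and docking, priming factors prepare the SNARE complex, and calcium bound to a synaptotagmin sets off fusion. The SNARE complex itself is made of syntaxin-1A and SNAP-25 on the plasma membrane and VAMP2 on the granule.

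The deposited unit was FPKM, which divides the fragments of each gene by the gene length and the library size. Reads could be recovered from it, and they summed to between 16289408 and 17944775 on genes per sample. Among the 9 genes the reads behind 1 value ranged from 207 for *Stx1a* to 10411 for *Cplx2*. *Parn* itself had an FPKM of 6.64, 8.34 and 7.38 in Ctrl and of 4.97, 4.61 and 6.15 in cKO, with no overlap (log2 fold change -0.44, limma adjusted p = 0.545). Ctrl replicate 1 stood apart from the other samples, with a summed FPKM of 6 leukocyte markers of 883 against 146 to 243 elsewhere and of 4 proliferation markers of 10.2 against 1.35 to 2.86. The sum of 10 β-cell markers, most of it *Ins2* and *Ins1*, was 235964 to 276386 in Ctrl and 195405 to 217645 in cKO, and all 10 were above 0 in every sample. The median log2 fold change of the 10 was -0.20, but the markers did not share a direction. *Ins2* was lower in cKO (109030 to 132945) than in Ctrl (154877 to 178676), without overlap. So was *Iapp*, at 13486 to 14450 in cKO and 17011 to 23853 in Ctrl. *Ins1* overlapped, at 61862 to 74399 in Ctrl and 63963 to 69820 in cKO, and *G6pc2* was higher in cKO (1422 to 1476) than in Ctrl (992 to 1266). At an unadjusted limma p under 0.05, 1 of the 10, *Ucn3*, was lower, beside 3.07% of all genes, and 0 were higher. For *Ins2* the limma standard error was 2.87 beside a log2 fold change of -0.46, so this count could not register it. For the 9 genes, log2 fold changes are also given without Ctrl replicate 1 where this turned the direction, changed a call or moved the value by over 1.5 times.

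The genotypes were compared with limma after a log2 transform of FPKM + 1, for 21211 genes whose mean FPKM reached 0.1, and all 9 genes reached it. At an adjusted p under 0.05, 0 of the 9 genes and 0 of all genes tested differed. At an unadjusted p under 0.05, *Rab3a* was higher in cKO, 1 of 9 genes, where 4.33% of all genes tested (919) were higher, and 0 were lower, where 3.07% of all genes (651) were lower and 7.4% passed in either direction. In *Rab3a* and *Snap25*, the cKO samples all lay above the Ctrl samples, and this held for 7.11% of all genes. None of the 9 had all cKO samples below all Ctrl samples, as 6.03% of all genes did. In a set of 9, 1 gene is 11.1% and 2 genes are 22.2%, so each of these shares turns on a single gene. The log2 fold changes of the 9 genes ran from -0.29 to 0.34, 5 above 0 and 4 below, with a median of 0.04 against -0.01 over all genes. The split over all genes depended on the scaling of the libraries: scaling to total reads on genes gave 1408 higher and 377 lower, and leaving out the reads of *Ins1* and *Ins2* gave 619 and 1257.

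**Figure D1:**
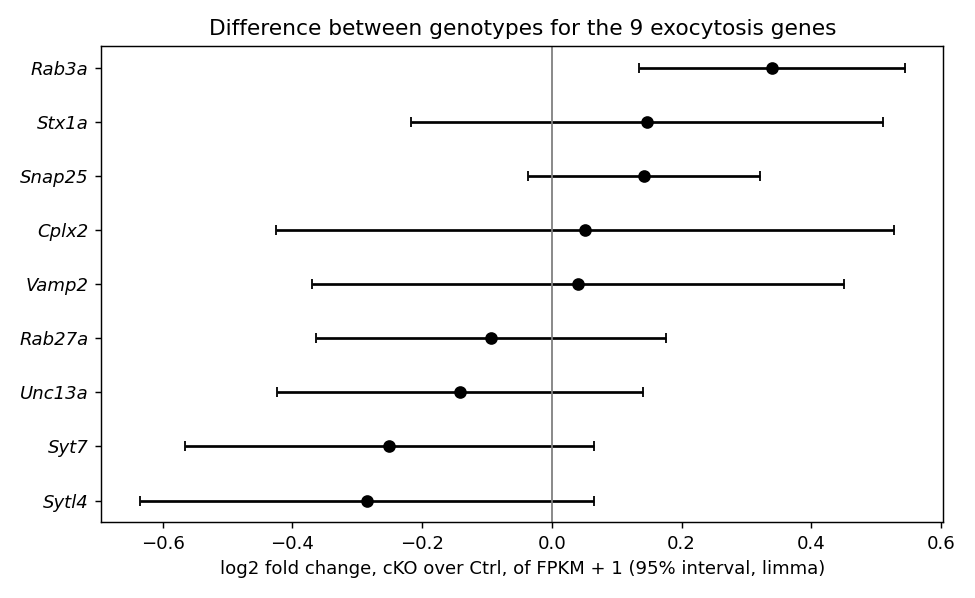
Log2 fold change of FPKM + 1, cKO over Ctrl, for each of the 9 exocytosis genes (points) with its 95% interval from limma (bars), ordered by size. The interval of *Rab3a*, 0.13 to 0.54, lies above 0 and the other 8 intervals include 0.

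Among the SNARE genes, *Snap25* had slightly higher values in cKO, while the values of *Stx1a* and *Vamp2* overlapped between the genotypes. *Snap25* (chromosome 2 of GRCm38 from 136713453 to 136782428, plus strand), the plasma membrane SNARE with a pair of helices, had an FPKM of 17.3, 17.9 and 16.4 in Ctrl and of 19.3, 18.4 and 19.5 in cKO. Each cKO sample was above each Ctrl sample, by a margin that was small beside the level. The means were 17.2 ± 0.769 (SD, n = 3) and 19.1 ± 0.601, a log2 fold change of 0.14 (SE, the standard error, 0.0746, 95% interval -0.04 to 0.32, limma adjusted p = 0.734). When the samples were scaled to total reads on genes, the log2 fold change was 0.22, with an unadjusted p of 0.0193 and a limma adjusted p of 0.472.

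*Stx1a* (chromosome 5 from 135023482 to 135051100, plus strand), the syntaxin with which SNAP-25 pairs, had the lowest level of the 9 genes. Its FPKM was 5.29, 4.94 and 6.52 in Ctrl and 5.87, 7.64 and 5.41 in cKO. One cKO sample, replicate 2, was above all others, and the other 2 lay inside the Ctrl range. The log2 fold change was 0.15 (SE 0.151, 95% interval -0.22 to 0.51, limma adjusted p = 0.854), and without cKO replicate 2 it was 0.02.

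*Vamp2* (chromosome 11 from 69088490 to 69092384, plus strand), the granule SNARE, had an FPKM of 36.8, 51.4 and 56.5 in Ctrl and of 53.9, 49.0 and 44.2 in cKO. All cKO values lay inside the range of the Ctrl samples, of which replicate 1 was the lowest. The log2 fold change of 0.04 (SE 0.171, 95% interval -0.37 to 0.45, limma adjusted p = 0.975) turned to -0.14 without Ctrl replicate 1.

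The SNARE genes were compared as FPKM ratios within a sample, which do not depend on the scaling of libraries but do depend on the gene lengths used. The ratio of *Vamp2* to *Snap25* FPKM averaged 2.82 ± 0.658 in Ctrl and 2.58 ± 0.274 in cKO (SD, n = 3), and that of *Snap25* to *Stx1a* was 3.14 ± 0.569 and 3.10 ± 0.620. On the length of the longest protein-coding transcript of each gene, the Ctrl means of these ratios were 1.52 and 8.16 in place of 2.82 and 3.14, with the comparison of genotypes unaffected. Both ratios overlapped between genotypes (exact two-sided permutation p = 0.6 and 0.8, where 3 samples against 3 cannot give less than 0.1). Within the paralog families, *Snap25* took 27.8% of the FPKM of *Snap25*, *Snap23*, *Snap29* and *Snap47* in Ctrl and 27.9% in cKO. *Vamp2* accounted for 48.7% ± 6.98 of *Vamp1*, *Vamp2*, *Vamp3* and *Vamp8* in Ctrl and for 50.4% ± 2.68 in cKO. The exact permutation p of these shares was 1 and 0.8, and their ranges overlapped.

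**Figure D2:**
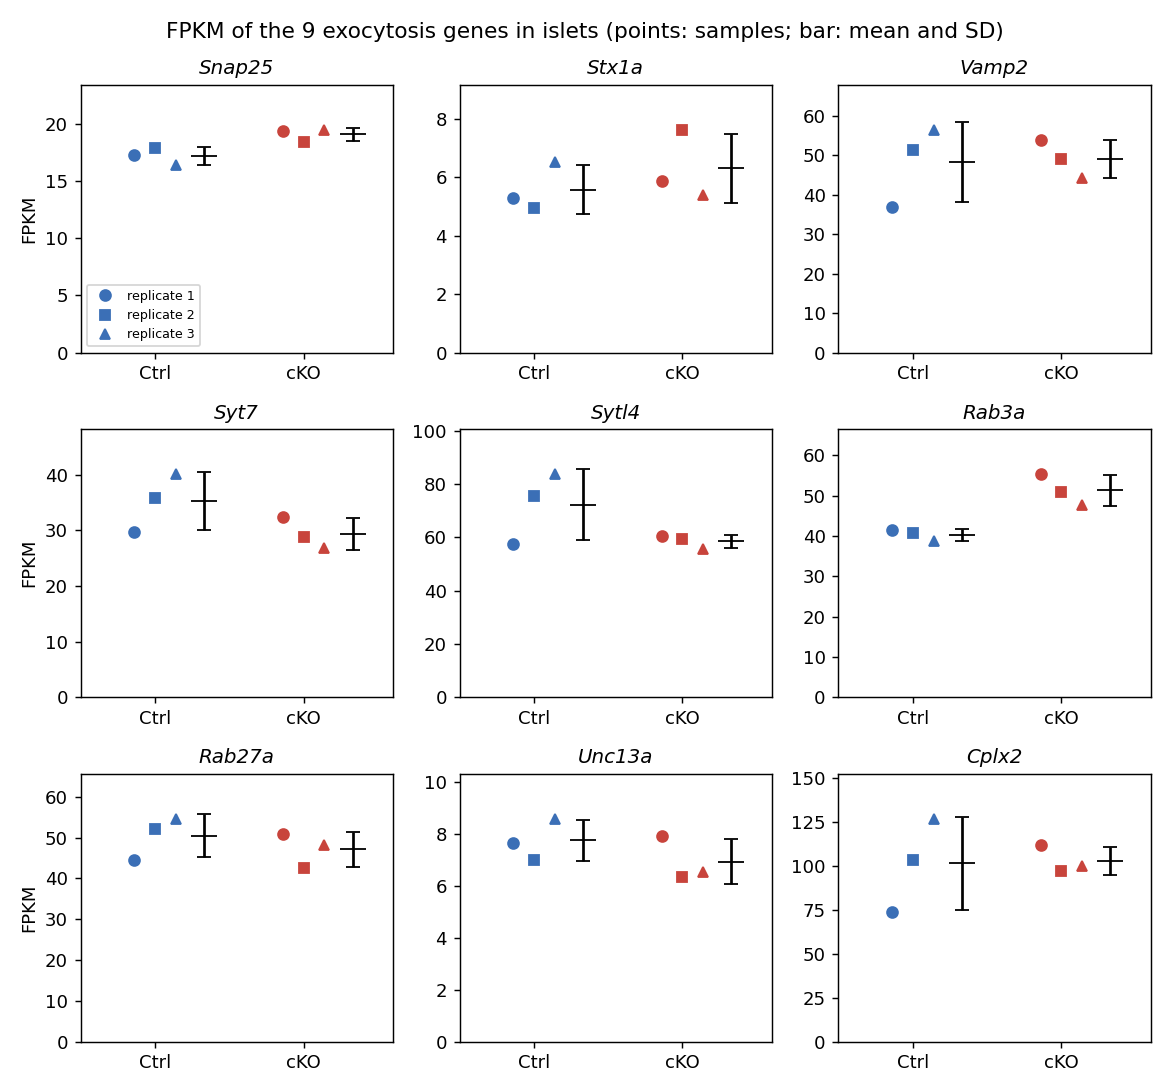
FPKM of the 9 exocytosis genes in the 3 Ctrl (blue) and 3 cKO (red) samples, with marker shapes for the replicate numbers, and the mean with its SD (black); each vertical axis starts at 0. The groups are apart in *Snap25* and *Rab3a*, and Ctrl replicate 1 is the lowest Ctrl sample in 5 genes.

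*Syt7* (chromosome 19 from 10389090 to 10453181, plus strand), a high-affinity calcium sensor of granule fusion, had an FPKM of 29.7, 35.8 and 40.1 in Ctrl and of 32.4, 28.8 and 26.7 in cKO. cKO replicates 2 and 3 lay below all Ctrl samples, and cKO replicate 1 lay between Ctrl replicates 1 and 2. The means were 35.2 ± 5.22 (SD, n = 3) and 29.3 ± 2.86, a log2 fold change of -0.25 (SE 0.131, 95% interval -0.57 to 0.07, limma adjusted p = 0.734). Without Ctrl replicate 1 the log2 fold change was -0.36, at an unadjusted p of 0.0195 and a limma adjusted p of 0.340.

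Among the 17 synaptotagmins, *Syt7* had the second highest level, far behind *Syt13*, a synaptotagmin with C2 domains that do not bind calcium, which took 72.6% of the summed FPKM in Ctrl. The share of *Syt7* was 8.56%, 8.94% and 9.69% in Ctrl and 8.02%, 8.52% and 6.80% in cKO. Every cKO share was below every Ctrl share, although the gap between cKO replicate 2 and Ctrl replicate 1 was narrow. The mean difference was -1.28 percentage points with an exact permutation p of 0.1, the smallest this design can give. Such a share was computed for each of the 9 genes, and only those of *Syt7*, *Sytl4* and *Cplx2* did not overlap between genotypes.

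*Sytl4* (chromosome X from 133936385 to 133981812, minus strand) encodes granuphilin, an effector of Rab27A and Rab3A that docks insulin granules by binding syntaxin-1A. The study measured it by quantitative PCR too, with the primers printed here because they show which end of the transcript that assay reads. The sequences are from the study's primer table and were placed on the longest protein-coding *Sytl4* transcript of the GENCODE M21 annotation. Capitals mark bases of exon 2 and lower case bases of exon 1.
Sytl4-F: cctgggttgctggtctaagt
Sytl4-R: AAGAGTGACCAGATGTGTctgt
The forward primer lies in exon 1 at chrX:133981741-133981760. The reverse primer crosses the junction, with 18 bases in exon 2 at chrX:133962280-133962297 and 4 bases in exon 1 at chrX:133981662-133981665. The amplicon of 117 bases ends before the first coding base, position 215 of the transcript, so the primers read the 5′ UTR, whereas the FPKM counts reads on all exons of the gene. The forward primer matched 4 of 4 and the reverse primer 3 of 4 protein-coding *Sytl4* transcripts, and neither matched another gene in the transcript set. The PCR values were not analysed here.

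The FPKM of *Sytl4* was 57.5, 75.6 and 83.7 in Ctrl and 60.4, 59.4 and 55.5 in cKO. The cKO samples lay close together, below Ctrl replicates 2 and 3 and on both sides of Ctrl replicate 1. Ctrl replicate 1 decided whether the groups overlapped. The log2 fold change was -0.29 with all samples (SE 0.146, 95% interval -0.64 to 0.06, limma adjusted p = 0.724) and -0.44 without Ctrl replicate 1 (unadjusted p = 0.00392, limma adjusted p = 0.212). In that fit 2 of the 9 genes, *Sytl4* and *Syt7*, passed the unadjusted threshold as lower, where 5.45% of the 20965 genes tested were lower, and *Rab3a* was higher, where 5.87% were higher.

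Within the family of synaptotagmin-like proteins, *Sytl4* took 64.5%, 72.6% and 75.6% of the summed FPKM of *Sytl1* to *Sytl5* in Ctrl and 61.1%, 63.2% and 60.6% in cKO. The cKO shares were all below the Ctrl shares, by 9.29 percentage points in the mean (70.9% ± 5.75 against 61.6% ± 1.37, SD, n = 3, exact permutation p = 0.1). The difference was -6.95 to -12.5 percentage points when any 1 sample was left out. The other side of this share was *Sytl1*, a Rab27 effector of the same family, with an FPKM of 24.9, 22.4 and 19.2 in Ctrl and of 31.7, 28.1 and 28.3 in cKO. Its log2 fold change was 0.39 (SE 0.113, unadjusted p = 0.0113, limma adjusted p = 0.527), without overlap. *Sytl3* and *Sytl5* stayed under an FPKM of 7 and *Sytl2* under 0.4 in every sample.

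*Rab3a* showed the difference that was clearest against the spread of the samples. The gene (chromosome 8 from 70754679 to 70758677, plus strand) encodes a Rab GTPase of insulin granules and synaptic vesicles that cycles on and off the granule membrane. Its FPKM was 41.6, 40.7 and 38.7 in Ctrl and 55.4, 51.0 and 47.7 in cKO. The lowest cKO sample was above the highest Ctrl sample, and the Ctrl samples lay close together. The means were 40.3 ± 1.47 (SD, n = 3) and 51.4 ± 3.87, 27.4% higher in cKO (log2 fold change 0.34, SE 0.0853, 95% interval 0.13 to 0.54). The unadjusted p was 0.00622, and the limma adjusted p of 0.469 did not pass. *Rab3a* kept an unadjusted p under 0.05 in 6 of 6 fits that left out 1 sample and in 10 of 10 other settings, with log2 fold changes of 0.25 to 0.43 and limma adjusted p values of 0.266 to 0.793. The last 29 bases of its span overlap *Mpv17l2* on the other strand.

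Several marker sums moved between the samples in which *Rab3a* was compared. The summed FPKM of 5 endothelial markers was 94.4 to 109 in Ctrl and 117 to 149 in cKO, with all 5 markers above 0 in every sample and 2 of 5 higher at an unadjusted p under 0.05. The sum of 8 acinar markers was 12119, 18813 and 6906.61 in Ctrl and 31291, 8559.96 and 26039 in cKO. The part of endothelial and acinar RNA in the *Rab3a* difference was not tested. The sum of 6 α-cell markers overlapped, at 11081 to 16353 and 8757.91 to 16320, as did those of the δ, PP, ductal, stromal, and neural and glial markers.

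*Rab3d*, the Rab3 family member known from zymogen and other secretory granules, was higher in cKO together with *Rab3a*. Its FPKM was 34.9, 36.4 and 33.99 in Ctrl and 55.0, 43.1 and 54.0 in cKO, without overlap (log2 fold change 0.51, SE 0.111, unadjusted p = 0.00304, limma adjusted p = 0.405). The cKO samples with the highest acinar sums, replicates 1 and 3, were also the highest in *Rab3d*. cKO replicate 2, with an acinar sum (8559.96) below those of Ctrl replicates 1 and 2 (12119 and 18813), was also above every Ctrl sample in *Rab3d*. Of the 8 acinar markers, 0 differed at an unadjusted limma p under 0.05. The part of acinar RNA in the *Rab3d* difference was not tested. The summed FPKM of *Rab3a* to *Rab3d* was 87.3 in Ctrl and 114 in cKO on average, and *Rab3a* took 46.2% ± 2.03 of it in Ctrl and 45.1% ± 2.46 in cKO (exact permutation p = 0.6). *Rab3b* overlapped between genotypes, at 8.67 to 14.2 and 9.27 to 11.7, and *Rab3c* stayed under 2 in every sample.

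*Rab27a* (chromosome 9 from 73044854 to 73097629, plus strand), the other granule Rab and the main partner of granuphilin, had an FPKM of 44.5, 52.1 and 54.7 in Ctrl and of 50.8, 42.5 and 48.2 in cKO. The groups overlapped, with the lowest value in cKO replicate 2 and the highest in Ctrl replicate 3. The log2 fold change was -0.09 (SE 0.112, 95% interval -0.36 to 0.18, limma adjusted p = 0.882). It was -0.18 without Ctrl replicate 1 and -0.02 without cKO replicate 2, and in neither fit did it pass the unadjusted threshold. *Rab27a* provided 99.4% of the summed FPKM of *Rab27a* and *Rab27b* in Ctrl and 99.2% in cKO, and *Rab27b* was under 0.5 in every sample.

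Ratios between the granule Rabs and granuphilin parted the genotypes. The ratio of *Rab3a* to *Rab27a* FPKM was 0.933, 0.781 and 0.708 in Ctrl and 1.09, 1.201 and 0.989 in cKO. Which gene of the pair was the higher depended on the gene lengths, since on transcript lengths the ratio was 0.827 to 1.09 in Ctrl and 1.16 to 1.403 in cKO. The ratio of *Rab3a* to *Sytl4* was 0.723, 0.538 and 0.462 in Ctrl and 0.917, 0.859 and 0.858 in cKO, with means of 0.574 ± 0.134 (SD, n = 3) and 0.878 ± 0.0335. Neither ratio overlapped, and each had an exact permutation p of 0.1. These were 2 of 6 ratios computed, and both hold the higher *Rab3a* values already given.

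**Figure D3:**
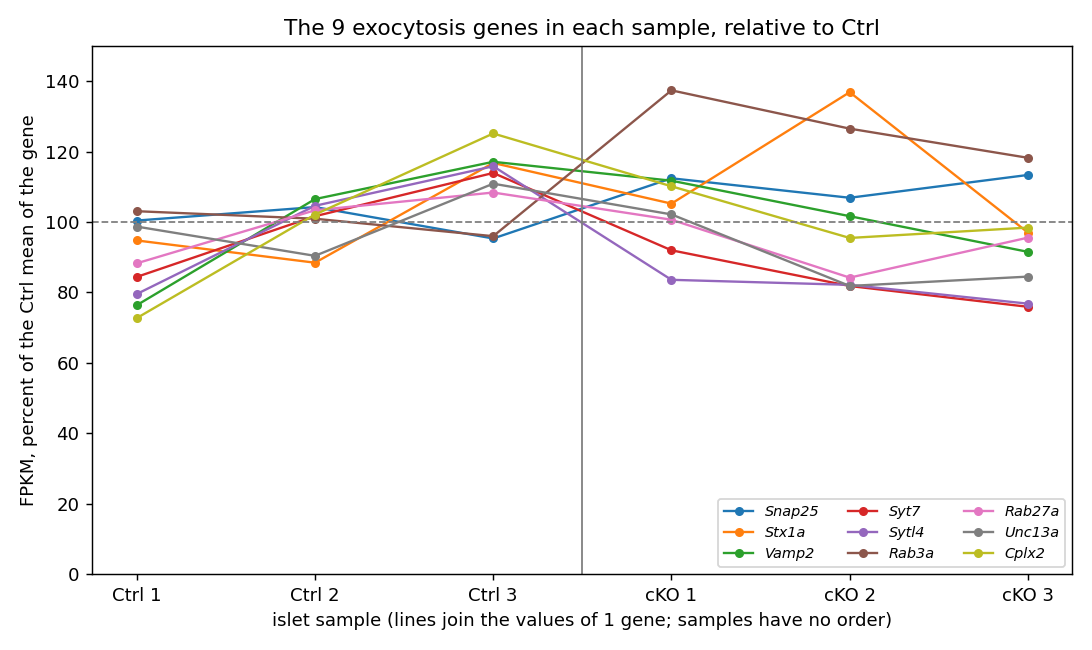
FPKM of each of the 9 exocytosis genes in each islet sample as percent of the Ctrl mean of that gene, 1 line per gene, Ctrl on the left and cKO on the right. *Cplx2*, *Vamp2*, *Sytl4*, *Syt7* and *Rab27a* are all below 100 in Ctrl replicate 1 and above it in Ctrl replicates 2 and 3, and *Rab3a* is above 115 in each cKO sample.

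Of the priming and clamping factors, neither *Unc13a* nor *Cplx2* differed beyond the spread of the samples. *Unc13a* (chromosome 8 from 71624417 to 71671757, minus strand), which encodes Munc13-1, the factor that opens syntaxin for SNARE assembly, had an FPKM of 7.66, 7.01 and 8.60 in Ctrl and of 7.93, 6.35 and 6.56 in cKO. cKO replicates 2 and 3 lay below the Ctrl samples and cKO replicate 1 inside their range. The log2 fold change was -0.14 (SE 0.117, 95% interval -0.42 to 0.14, limma adjusted p = 0.820). Its share of *Unc13a* to *Unc13d* was 72.7% ± 5.57 in Ctrl and 70.9% ± 3.09 in cKO. In Ctrl replicate 1, which had the high leukocyte markers, *Unc13d*, the form of cytotoxic and other blood cells, had an FPKM of 1.64 against 0.353 to 0.604 in the other samples.

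*Cplx2* (chromosome 13 from 54371349 to 54383917, plus strand), a complexin that binds and clamps the assembled SNARE complex, had the highest mean FPKM of the 9 genes in both genotypes. Its FPKM was 73.8, 104 and 127 in Ctrl and 112, 96.9 and 99.9 in cKO. The cKO samples all lay between the lowest and the highest Ctrl sample. The log2 fold change was 0.05 (SE 0.198, 95% interval -0.43 to 0.53, limma adjusted p = 0.972), and it turned to -0.16 without Ctrl replicate 1. *Cplx1*, at an FPKM of 1.23, 0.813 and 1.73 in Ctrl and of 2.29, 3.02 and 2.02 in cKO, was higher at an unadjusted p of 0.0163 (log2 fold change 0.62, limma adjusted p = 0.546). *Cplx2* nevertheless made up 98.3% ± 0.163 of complexin FPKM in Ctrl and 97.4% ± 0.602 in cKO, without overlap (exact permutation p = 0.1). *Cplx4* was listed at 0 in every sample.

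The levels of the 9 genes spanned a wide range. In Ctrl the order by mean FPKM was *Cplx2* (101), *Sytl4* (72.3), *Rab27a* (50.4), *Vamp2* (48.2), *Rab3a* (40.3), *Syt7* (35.2), *Snap25* (17.2), *Unc13a* (7.76) and *Stx1a* (5.58). The ranges of *Cplx2* and *Sytl4* overlapped, although *Cplx2* was above *Sytl4* within each sample. Each pair of neighbours from *Rab27a* to *Syt7* overlapped as well, and the order within such a pair was within the spread. *Rab27a* (44.5 to 54.7) did not overlap *Rab3a* (38.7 to 41.6) or *Syt7* (29.7 to 40.1) in Ctrl, on the deposited gene lengths. *Sytl4* lay above *Rab27a*, *Syt7* above *Snap25*, *Snap25* above *Unc13a* and *Unc13a* above *Stx1a* in every Ctrl sample, on the deposited gene lengths. In cKO, *Rab3a* ranked 3 and *Rab27a* ranked 5. By their mean over all samples the 9 genes lay between percentile 71.6 (*Stx1a*) and 98.7 (*Cplx2*) of the genes tested. For every member but *Cplx2*, at 4928 bases on both, the deposited gene length was above the length of the longest protein-coding transcript. *Snap25* was the gene most affected, with 6791 bases against 2116 for its longest protein-coding transcript. On the length of that transcript its Ctrl mean was 55.2, close to the 57.7 of *Rab3a* and above the 38.7 of *Syt7* on the same basis, so that the order of *Syt7* and *Snap25* was reversed, while *Stx1a* (6.88) and *Unc13a* (9.55) remained the lowest.

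The spread between Ctrl samples was partly shared among the genes. The median of the 9 genes, as percent of the Ctrl mean, was 88.3, 102 and 114 for the Ctrl replicates in order of number, and 105, 95.5 and 95.6 for those of cKO. Ctrl replicate 3 was the highest Ctrl sample in 7 of 9 genes and cKO replicate 1 the highest cKO sample in 7 of 9. Without Ctrl replicate 1, the median log2 fold change of the 9 genes was -0.15.

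The profiles of *Rab3a* and *Sytl4*, the genes with the smallest unadjusted p in each direction, were compared with those of the genes whose mean FPKM reached 1, with 1 row for each of 13049 distinct gene names. Likeness was the root mean square difference of centred log2 values over the 6 samples, for which the genes share libraries and genotype. The nearest to *Rab3a* were *Marveld1* (0.0289), *Tspan33*, a tetraspanin (0.0322), and *Chmp7*, a component of the ESCRT membrane machinery (0.0334). Those nearest to *Sytl4* were *Yars*, the tyrosyl-tRNA synthetase (0.0414), *Zfand1* (0.0436) and *Ppp1r37* (0.0520).

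PARN shortens poly(A) tails, and the last 300 bases of the members' 3′ UTRs were searched on the sense strand for TTTTAT, the cytoplasmic polyadenylation element, and for TATTTAT, a form of AU-rich element. TTTTAT was in 2 of the 8 members with such a window and in 29.5% of the 11476 tested genes with one. TATTTAT was in 0 of 8 and in 10.5%. One annotated transcript per member was searched. For *Vamp2*, *Syt7* and *Unc13a* it was not the longest protein-coding transcript, on which the transcript lengths given above are based. The transcript searched for *Syt7* had no 3′ UTR. The matches are printed with TTTTAT in capitals, in the sequence of the GENCODE M21 transcripts, to show where in the SNARE transcripts they lie.
Stx1a: tttgtgagatTTTTATgtagaataaa
Vamp2: gcattaaaggTTTTATgcccctttgt
The *Stx1a* bases printed, the match with its flanks, are chr5:135051061-135051086 of GRCm38 on the plus strand, in exon 10 of 10. The TTTTAT in them starts 30 bases from the transcript end. The *Vamp2* bases printed, again the match with its flanks, are chr11:69090413-69090438 on the plus strand, in exon 4 of 4. Their TTTTAT starts 268 bases from the end of the transcript searched, which has a 3′ UTR of 505 bases. The span of the *Vamp2* gene runs further, to 69092384, and other *Vamp2* transcripts were not searched. Neither gene differed between the genotypes beyond its spread.

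The other genes of the pathway were taken from a list of 112 genes written from knowledge of exocytosis, of which 111 were in the file and 107 were tested. At an adjusted p under 0.05, 0 differed. At an unadjusted p under 0.05, 13 were higher in cKO, 12.1% of the list beside 4.33% of all genes, and 1 was lower, beside 3.07%. In 18 genes the cKO samples were all above the Ctrl samples, 16.8% of the list beside 7.11% of all genes, and in 4 they were all below, beside 6.03% of all genes. The number of higher genes was 8 without the reads of *Ins1* and *Ins2* and 9 to 14 when 1 sample was left out. The median log2 fold change was 0.03. The endothelial marker sum given above was also higher in cKO, and its part in these counts was not tested.

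Of the 13 higher genes, 5 were in a group of 13 tested genes, the effectors of Rab3 and Rab27 with the motor gene *Myo5a*, where 4.33% of all genes were higher. With 1 sample left out, 3 to 4 of these 5 were still higher at an unadjusted p under 0.05. The 5 were picked by their p in the fit of all samples, which shares its samples with these fits. The 3.21% to 5.87% of all genes higher in these fits is therefore no benchmark for them. The grouping by role was not among the planned comparisons. The other groups, of 7 to 18 tested genes, held 2 or fewer each, and the difference between groups was not tested. *Rph3a*, which encodes rabphilin, an effector of Rab3A, had an FPKM of 0.63, 0.493 and 0.0777 in Ctrl and of 3.28, 2.83 and 4.04 in cKO, from 6 to 51 reads and from 228 to 339 reads. This was the list's smallest p (log2 fold change 1.66, SE 0.196, limma adjusted p = 0.274). The pseudocount of 1 makes this value too small for so low a gene, and limma's voom on the reads gave 3.48 (adjusted p = 0.164). The other higher genes of this group were *Sytl1*, *Sytl3* (log2 fold change 0.49, limma adjusted p = 0.581, past the unadjusted p in 3 of 6 fits that left out 1 sample), *Myrip* (0.27, 0.671, in 0 of 6) and *Myo5a*, the motor that Rab27 effectors recruit (0.49, 0.518). *Mlph*, of the same group, had the lowest log2 fold change of the list (-0.58, limma adjusted p = 0.716), with overlap. It passed the unadjusted p as lower without Ctrl replicate 1 and with sample weights, where 5.45% and 5.87% of all genes were lower.

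*Syt10*, a calcium-binding synaptotagmin, had an FPKM of 1.09, 0.965 and 0 in Ctrl and of 2.81, 4.05 and 5.84 in cKO (log2 fold change 1.67, SE 0.343, limma adjusted p = 0.392). The Ctrl samples were all below the cKO samples, which varied widely among themselves, and voom on the reads gave 3.97 on the log2 scale (limma adjusted p = 0.443). The remaining higher genes were the exocyst subunit *Exoc4* (0.48, limma adjusted p = 0.517), *Rab3d*, *Cplx1*, the SNARE *Snap47* (0.24, 0.546), the scaffold gene *Bsn* (0.31, 0.581), the chaperone gene *Dnajc5* (0.22, 0.626) and the synuclein gene *Sncb* (0.31, 0.644). *Rph3a*, *Syt10*, *Rab3d*, *Sytl1*, *Exoc4* and *Myo5a* kept an unadjusted p under 0.05 in 6 of 6 fits that left out 1 sample.

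**Figure D4:**
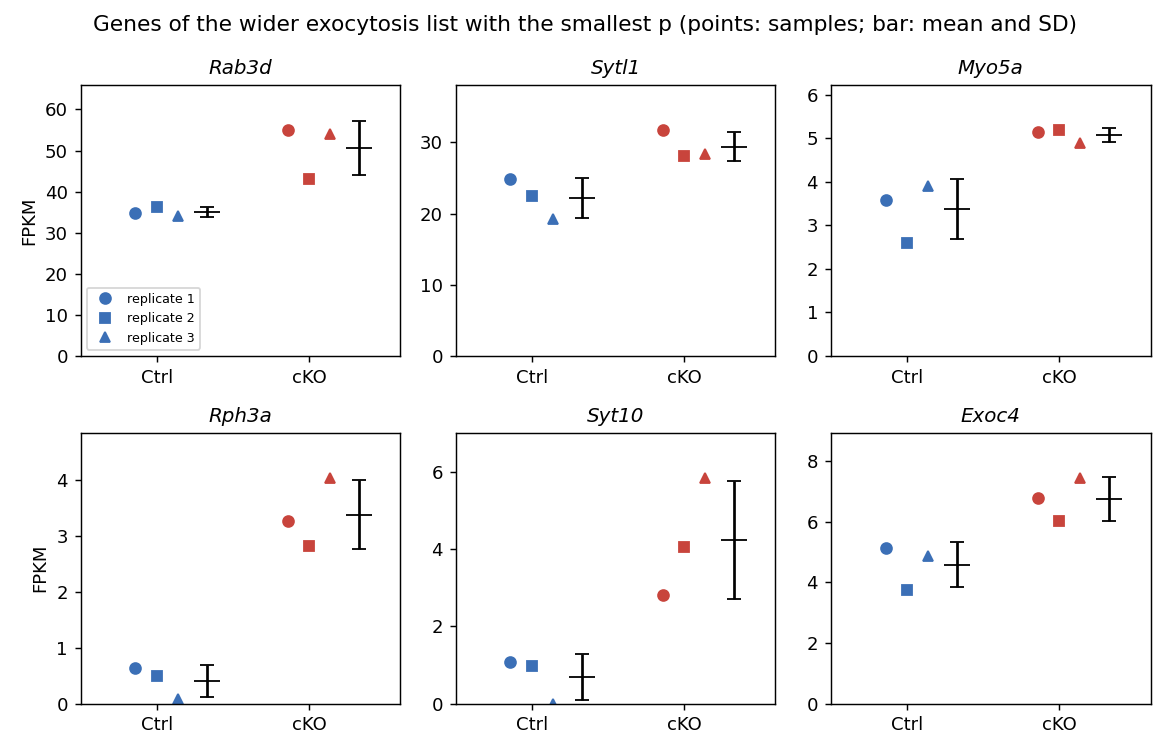
FPKM of the 6 genes of the wider exocytosis list that kept an unadjusted p under 0.05 whichever sample was left out, in 3 Ctrl (blue) and 3 cKO (red) samples, with the mean and SD (black). In each gene the cKO samples are above the Ctrl samples; *Rph3a* and *Syt10* are under an FPKM of 2 in Ctrl.

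The lower gene was *Vamp3*, the SNARE of constitutive and endosomal traffic and a paralog of *Vamp2*. Its FPKM was 23.4, 23.4 and 19.99 in Ctrl and 18.7, 19.1 and 17.0 in cKO, without overlap (log2 fold change -0.27, SE 0.0953, limma adjusted p = 0.601). It passed the unadjusted p in 2 of 6 fits that left out 1 sample, and *Camta1* overlaps it on the same strand. The 5 genes of the list with the highest mean FPKM were *Syt13* (278), the secretory pathway Rab *Rab2a* (141), the granule membrane proteins *Ptprn* (121) and *Ptprn2* (70.8), and *Baiap3* (53.2), a Munc13 relative of dense-core vesicles. Their log2 fold changes lay between -0.04 and 0.11, with limma adjusted p values from 0.888 to 0.999.

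**Figure D5:**
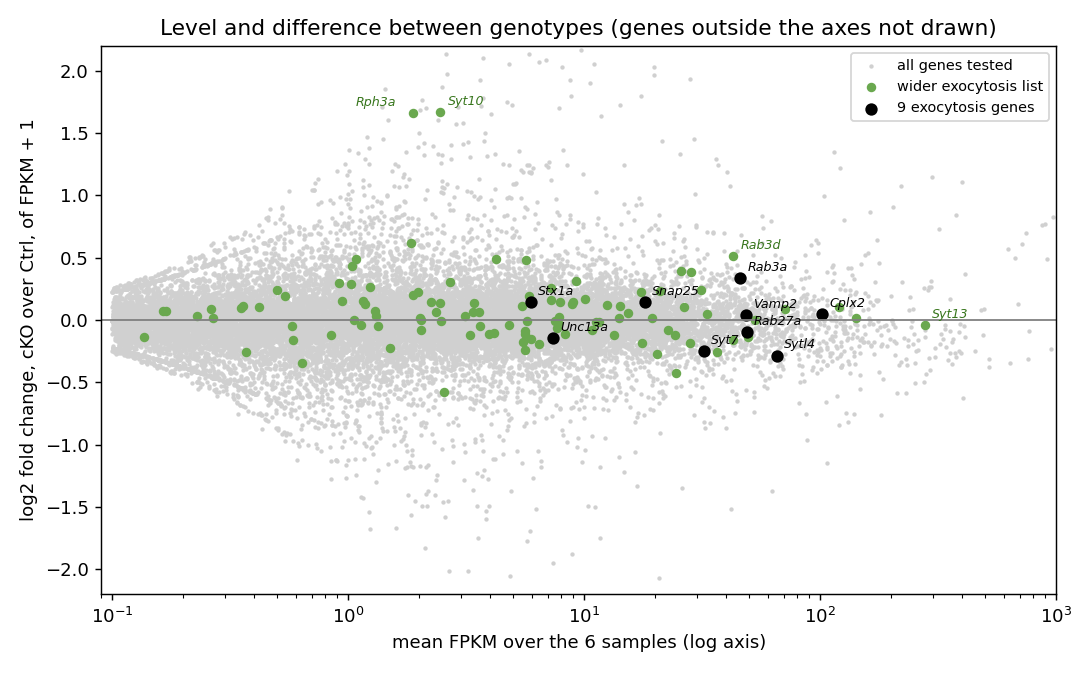
Mean FPKM over the 6 samples (log axis) against the log2 fold change of FPKM + 1, cKO over Ctrl, for all genes tested (grey), the wider exocytosis list (green) and the 9 exocytosis genes (black). The 9 genes lie between -0.29 and 0.34, and *Rph3a* and *Syt10* at 1.66 and 1.67 are the genes of the list farthest from 0.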

How the data were processed

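Total RNA of islets from 3 Ctrl and 3 cKO samples was extracted with TRIzol, and libraries were prepared by the authors with a SMARTER mRNA kit. The authors deposited FPKM per gene and sample on GRCm38. The aligner, the counter and the annotation release are not given in the sources used here. The reads behind each value were recovered from the step between low values, and 100% of values came out whole within 0.05 reads. The median ratio of each sample to the geometric mean was 1 in all 6 samples, so the FPKM already carry a median-of-ratios scaling.

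Log2(FPKM + 1) was compared with limma 3.58.1 in R 4.3.3 by a linear model whose variances were moderated with a trend on the mean. Tests were two-sided, genes entered where their mean FPKM reached 0.1, and p values were adjusted by Benjamini-Hochberg over all genes tested. The pseudocount of 1 makes fold changes of weakly expressed genes too small. The deposited unit is FPKM, so a count test was not the main test. Shares and ratios were compared by exact two-sided permutation over samples with scipy 1.17.1 in Python 3.11.15, and figures were drawn with matplotlib 3.10.9. The code was tested on simulated data.

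The 9 members, the pathway and marker lists were chosen with earlier results of these data known. By rule, the genes named are the members and their paralogs. From the pathway list, those at an unadjusted p under 0.05 and the 5 with the highest mean are named. *Parn* and the 3 genes most like each of *Rab3a* and *Sytl4* are named too. Some β-cell markers and *Mlph* were named outside this rule. Alternatives were the pseudocount, the filter, no trend, the scaling, sample weights, limma's voom on the reads, a replicate block and leaving out each sample. Scaling to total reads and the transcript length were added after seeing the data. Motifs and primers were placed on GENCODE M21 transcripts. *Tmem27* of the pathway list was not matched. Some results that were computed are not reported here. Strandedness of the counting is not given, so reads of overlapping genes cannot be told apart. Replicate numbers come from the labels of the authors.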

Additional observations from a re-analysis of the deposited data

How the results depend on the processing

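The direction was the same in every alternative for 7 of the 9 members. *Vamp2* turned to -0.0482 without the reads of *Ins1* and *Ins2* and -0.0578 with sample weights, and ran from -0.14 to 0.16 (log2) with 1 sample left out. *Cplx2* turned to -0.0390 and -0.0214 in the same settings and ran from -0.16 to 0.23. Members higher at an unadjusted p numbered 2 with scaling to total reads (*Rab3a* and *Snap25*, chosen after seeing the data). Members lower numbered 1 without insulin reads (*Syt7*), 2 with sample weights (*Sytl4* and *Syt7*) and 0 to 2 with 1 sample left out, the 2 without Ctrl replicate 1. Over all genes, 1408 were higher and 377 lower with total reads, and the lower ones numbered 1257 without insulin reads, 1245 with sample weights and 401 to 1142 with 1 sample left out. At an adjusted p, 0 to 10 genes were higher and 0 to 4 lower with 1 sample left out, the 10 and 4 without Ctrl replicate 1, and none was a member. Of the wider list, 8 were higher and 4 lower without insulin reads, 0 lower with total reads, 4 lower with sample weights and 0 to 6 lower with 1 sample left out, the 6 without Ctrl replicate 1. With 1 sample left out, the difference in family share ran from -0.676 to 0.59 percentage points for *Snap25*, -2.02 to 4.94 for *Vamp2*, -2.14 to 0.292 for *Rab3a* and -4.94 to 0.354 for *Unc13a*. The cause of these shifts was not tested. Scaling by size factors gave the values as reported, since the FPKM already carry it.

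The deviations of same-numbered Ctrl and cKO samples from their group means correlated at r of -0.17, -0.02 and -0.07, and those of other pairs at -0.08 to 0.13. With 3 samples per group these values cannot show whether such samples shared a litter or a batch, which the labels do not give. With a replicate block, 737 genes were higher and 538 lower at an unadjusted p, and of the members *Rab3a* alone passed as higher and 0 passed as lower. With 3 samples against 3, the permutation tests cannot pass 0.05, and 207 to 354 reads stand behind each *Stx1a* value.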
